A study of Mus musculus with 250 samples.

Results

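A set of 10 transcription regulators that mark glial identity were followed across 250 single brain cells that the titles call astrocytes. They are Sox2, Sox8 and Sox9 of the SOX family, Nfia, Nfib and Nfix of the nuclear factor I (NFI) family, the Notch-responsive repressor gene Hes5, the inhibitors of DNA binding Id3 and Id4, and the homeodomain-only gene Hopx. They were chosen by name and are 10 of the 24490 gene rows of the count table, and each had reads. The cells came from the brains of C57BL/6 mice of the genotype SM22-Cre;Rosa26-stop-tdTomato, adults of about 3 months, with no treatment named. In this line the promoter of Tagln (SM22), a smooth muscle gene, drives Cre, which unlocks the fluorescent reporter tdTomato, so the line is built to mark smooth muscle and not astrocytes. Single cells were sorted by fluorescence into wells and their polyadenylated RNA was read along its full length with the Smart-seq2 method. Without molecular identifiers, its reads do not count independent molecules.

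The cell names in the table headers carry the prefix Brain.VSMC3 (88 cells) or Brain.VSMC2 (162 cells) before a well position. These are called plate 3 and plate 2 here, which is a name for the prefix. No animal is named in the labels, and the 250 cells therefore count as 1 sample. All values below are therefore descriptions with no test, the SD is that between cells, and an exact binomial interval on a share of cells covers counting error only.

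As background, SOX proteins bind DNA through a shared high-mobility-group domain: SOX2 keeps neural stem cells undifferentiated, and SOX9 starts gliogenesis in the embryonic neural tube and induces Nfia, with which it then acts on astrocyte genes. NFI proteins bind DNA as dimers and switch progenitors from making neurons to making glia. Hes5 is switched on by Notch signalling and represses neurogenic genes, while ID proteins, which are induced by bone morphogenetic proteins (BMPs), have a helix-loop-helix but no DNA-binding region and hold back basic helix-loop-helix (bHLH) activators. HOPX is a small homeodomain protein that does not bind DNA and is known in the brain from radial glia and adult hippocampal stem cells.

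The cells held 102161 to 564958 reads, with a median of 391071.5 on plate 3 and 256247 on plate 2, and a median of 2400.5 genes. Levels are CPM, reads of a gene per 1000000 reads of the cell, and 10 CPM was the limit for detection. Among 16367 genes that had reads, 5.92% passed that limit in 50% of the cells or more, and the median gene was detected in 8.0% of them at a mean of 14.9 CPM. All 10 of the astrocyte markers looked up passed the 50% mark, and their summed level ran between 21685 and 62459 CPM on plate 3 and between 25867 and 60732 CPM on plate 2. Of 9 oligodendrocyte markers, 2 passed it, among them Cnp in 191 cells, with a median summed level of 583 CPM on plate 3 and 867.5 CPM on plate 2. None of the markers of oligodendrocyte precursors (6), neurons (7), microglia (6), endothelium (6), mural cells (7) or ependyma (5) passed it. Sox10 and Gpr17 reached 10 CPM in 0 cells and C1ql1 had no reads. Of the 7 mural markers, Pdgfrb was the widest, in 94 cells at 88.4 ± 192 CPM, followed by Acta2 in 39 cells at 6.80 ± 15.4 CPM, whereas Tagln and Myh11 were in 5 cells each and Kcnj8 in 0. The median summed level of these 6 lists was at most 20.1 CPM on plate 3 and at most 17.1 CPM on plate 2, although single cells reached 2073 CPM of neuron markers on plate 3 and 2205 CPM on plate 2. Of 70 values of rho between a factor and the summed markers of one of the 7 other cell types, 6 were beyond 0.2 in either direction on plate 3, 0 on plate 2 and 0 on both. The 6 on plate 3 were Nfia with oligodendrocyte (0.26), Hes5 with neuron (-0.24) and with endothelial (-0.20), Nfix with oligodendrocyte precursor (-0.22), Nfib with endothelial (0.21) and Sox9 with ependymal (0.21) markers. Beyond these values, the part of other cell types in the results was not tested.

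Of the 10 factors, 5 passed the 50% mark, namely Nfia, Sox9, Sox8, Nfib and Nfix. On plate 3 it was 7, with Sox2 and Hes5 added, against 6.43% of all genes with reads, and on plate 2 it was 5, against 5.82%. Sox2, Hes5, Id4 and Id3 were each found in 102 to 119 cells, and Hopx in 5. The order of mean level was Sox9, Nfia, Sox8, Id3, Nfib, Hes5, Id4, Nfix, Sox2 and Hopx in CPM. Per kilobase of the longest coding transcript, which is the scale on which genes can be set beside each other, it was Id3 (170 CPM per kb), Hes5 (135), Sox8 (83.9), Sox9 (73.1), Sox2 (33.7), Id4 (28.5), Nfia (28.3), Nfib (21.5), Nfix (14.8) and Hopx (1.15). The short mRNAs of Id3 and Hes5 thus led per kilobase although fewer than 50% of the cells held them at 10 CPM. Which of them leads depends on the length taken, since per kilobase of all annotated exons Hes5 was at 126 CPM and Id3 at 121 CPM. For every neighbouring pair in either order the means differed by less than the SD between cells of the higher gene. That SD measures the spread of cells and not how well a mean is known, so the order was not tested.

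**Figure D1:**
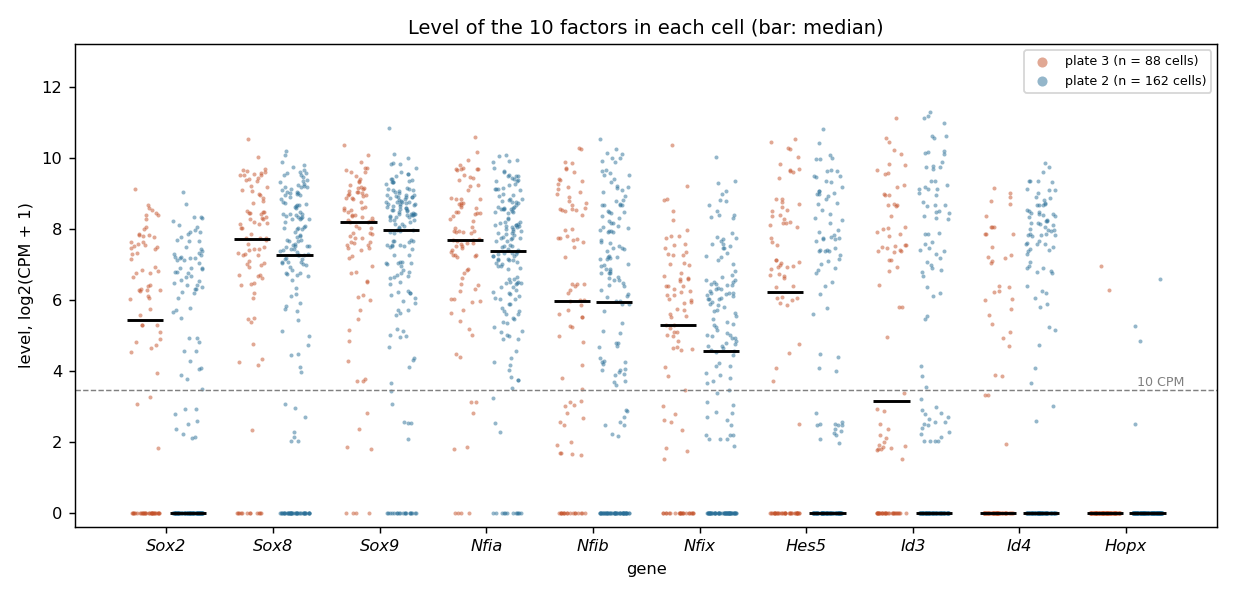
Level of each of the 10 factors in each cell as log2(CPM + 1), with plate 3 (88 cells) left of plate 2 (162 cells), the median as a black bar and 10 CPM as a dashed line. Cells with 0 reads were few for Nfia (16), Sox9 (23) and Sox8 (53), were between 113 and 139 for Sox2, Hes5, Id3 and Id4, whose other cells lay mostly above 50 CPM, and were 244 for Hopx.

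Of the SOX genes, Sox9 (chr11:112782224-112787760, plus strand, GRCm38) was the most widely detected, in 217 cells (86.8%, 95% interval 82.0 to 90.7). Its level ran between 0 and 1813 CPM with a median of 260 CPM and a mean of 302 ± 273 CPM. Sox9 had the lowest coefficient of variation of the 10, with an SD 0.904 times the mean, and its 25 highest cells held 28.9% of its summed CPM. Sox8 (chr17:25565892-25570686, minus strand), of the same SOXE subgroup, was detected in 189 cells (75.6%, 69.8 to 80.8), between 0 and 1483 CPM with a median of 169 CPM and a mean of 252 ± 270 CPM. At least 1 of these 2 SOXE genes was detected in 240 cells. Sox10, the SOXE gene of the oligodendrocyte lineage, was below 10 CPM in every cell, with 6.94 CPM at most. Sox8 is also known from that lineage, and its rho with Mbp, a myelin gene, was 0.10 on plate 3 and 0.01 on plate 2.

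Sox2 (chr3:34650405-34652461, plus strand), the SOXB1 gene of neural stem cells that adult astrocytes keep on, was detected in 119 cells (47.6%, 41.3 to 54.0). It ran between 0 and 556 CPM, with a median of 4.76 CPM and a mean of 69.3 ± 105 CPM, and averaged 145 CPM in the cells that had it. A further 119 cells had 0 reads of it, so Sox2 was either not detectable at this depth or at 50 CPM or more in most cells. It lies in an intron of the long noncoding gene Sox2ot on the same strand, which averaged 87.5 CPM, and the levels of Sox2 and Sox2ot had a rho of 0.11 on plate 3 and -0.06 on plate 2.

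Of the 16 other SOX genes, 1 was detected in at least 50% of the cells, Sox6, a SOXD gene known to hold back SOXE activity in oligodendrocyte precursors, with 169 ± 274 CPM in 137 cells. Sox1, a SOXB1 gene like Sox2, had 93.0 ± 162 CPM in 97 cells. The SOXD gene Sox5 was found in 84 cells and the SOXB2 gene Sox21 in 53. Another 6 of the 16 were detected in no cell. The rho of Sox2 with Sox1 was -0.01 on plate 3 and -0.07 on plate 2.

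Nfia (chr4:97772734-98118874, plus strand), the NFI gene that SOX9 induces at the onset of gliogenesis, was the most widely detected of the 10 factors, in 226 cells (90.4%, 86.1 to 93.8). It ran between 0 and 1533 CPM, with a median of 188 CPM and a mean of 270 ± 268 CPM. Nfib (chr4:82290173-82705750, minus strand) was detected in 162 cells (64.8%, 58.5 to 70.7), between 0 and 1469 CPM with a median of 61.5 CPM and a mean of 196 ± 290 CPM. Nfib was more uneven than Nfia, as its 25 highest cells held 46.2% of its summed CPM against 32.4% for Nfia. Nfix (chr8:84699876-84800344, minus strand), whose product promotes quiescence of neural stem cells, was detected in 149 cells (59.6%, 53.2 to 65.7), between 0 and 1317 CPM with a median of 26.9 CPM and a mean of 81.3 ± 154 CPM. Nfic, the other NFI gene, was found in 99 cells at 59.1 ± 112 CPM. Per kilobase of all annotated exons, Nfib was at 13.1 CPM in place of 21.5 CPM.

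The genes known to be activated by SOX9 and NFIA together were uneven. Mmd2 was detected in 248 cells at 2405 ± 1352 CPM, Zcchc24 in 124 at 168 ± 264 CPM, Gfap in 32 at 59.4 ± 313 CPM and Apcdd1 in 15 at 12.6 ± 61.8 CPM. The rho of Sox9 with Mmd2 was 0.07 on plate 3 and 0.09 on plate 2, and that of Nfia with Mmd2 was 0.09 and 0.11. Nfix had a rho with Gfap of 0.38 on plate 3 and 0.14 on plate 2, against -0.07 and -0.00 for Nfia. None of these target pairs reached 0.2 on both plates.

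**Figure D2:**
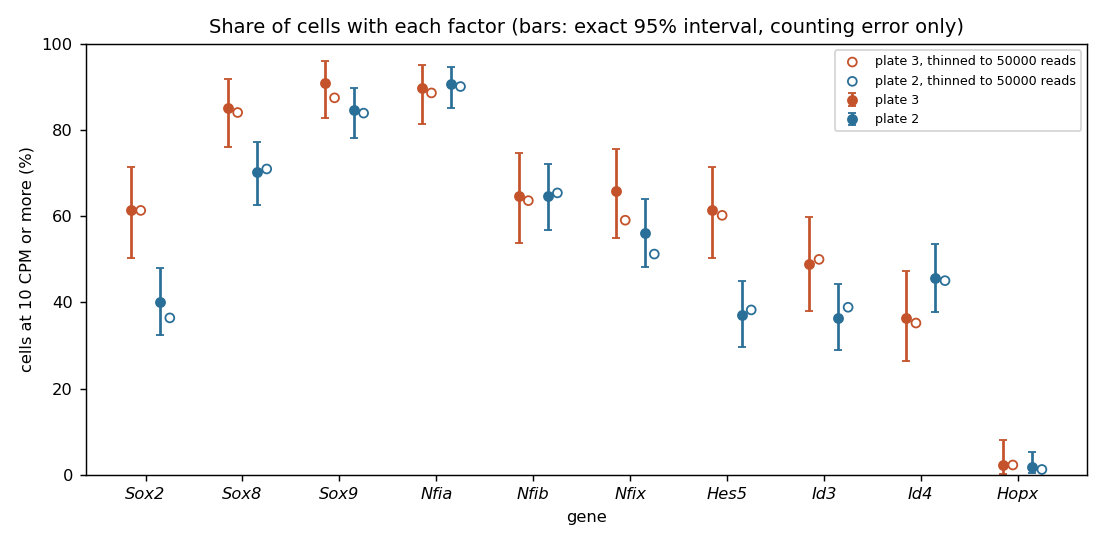
Share of cells at 10 CPM or more for each factor with its exact 95% interval for plate 3 (88 cells, left) and plate 2 (162 cells, right). Open points give the share with every cell thinned to 50000 reads, where 1 read passes 10 CPM, a looser limit than at full depth. Sox2 and Hes5 were both at 61.4% on plate 3, against 40.1% and 37.0% on plate 2, while Nfia and Nfib lay within 1 percentage point and Id4 was lower on plate 3.

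Hes5 (chr4:154960923-154962371, plus strand), the bHLH repressor downstream of Notch in neural stem cells and glia, was detected in 114 cells (45.6%, 39.3 to 52.0). It ran between 0 and 1803 CPM, with a median of 3.66 CPM and a mean of 172 ± 310 CPM, and 122 cells had no read of it. In the cells that had it, Hes5 averaged 376 CPM, and the 25 highest cells held 56.2% of its summed CPM. Hes1, the other Notch-responsive HES gene, was found in 92 cells at 63.1 ± 125 CPM, Hey1 in 83 at 124 ± 239 CPM and Heyl in 67 at 100 ± 239 CPM. None of the 8 other HES and HEY genes reached 50% of the cells. The rho of Hes5 with Hes1 was -0.05 on plate 3 and 0.06 on plate 2.

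Of 15 Notch pathway genes, 4 passed the 50% mark. They were the receptors Notch1 (186 cells, 235 ± 248 CPM) and Notch2 (195 cells, 206 ± 271 CPM), the glycosyltransferase Lfng, which modifies Notch (214 cells, 130 ± 134 CPM), and Dner, a Notch-binding transmembrane protein known from Purkinje neurons (150 cells, 350 ± 469 CPM). The ligand Jag1 was found in 105 cells, and Dll1 had no reads. Rbpj, the DNA-binding partner of Notch, was detected in 23 cells at 16.7 ± 69.9 CPM. Hes5 and Notch1 had a rho of -0.03 on plate 3 and 0.24 on plate 2, and Hes5 and Notch2 0.08 and 0.06.

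Of 6380 genes, those most like Hes5 over cells within each plate were Slc1a3, Nrarp and Apoe. Slc1a3, the glutamate transporter GLAST, had a rho with Hes5 of 0.45 over the 88 cells of plate 3 and 0.28 over the 162 cells of plate 2. For Nrarp, a small ankyrin-repeat protein that Notch induces and that dampens it, the rho was 0.39 and 0.30. For Apoe, the main apolipoprotein of the brain, it was 0.41 and 0.27. Cells of a plate share its library preparation, and Hes5 itself had a rho of 0.30 with the read total on plate 3 and -0.03 on plate 2. With the read total and the number of genes held constant, the rho of Hes5 with Slc1a3 was 0.39 and 0.30 and that with Nrarp 0.33 and 0.29. In all, 10 genes, 0.157% of those compared, had a rho with Hes5 of at least 0.2 on both plates, more than for any other factor. Beside these 3 they were Adcyap1r1, Nnat, Agt, Nkx6-2, Ptn, Mfge8 and Ptplad1. With read total and number of genes held constant the count was 8, and Mfge8, at 0.14 on plate 3, was among those lost.

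**Figure D3:**
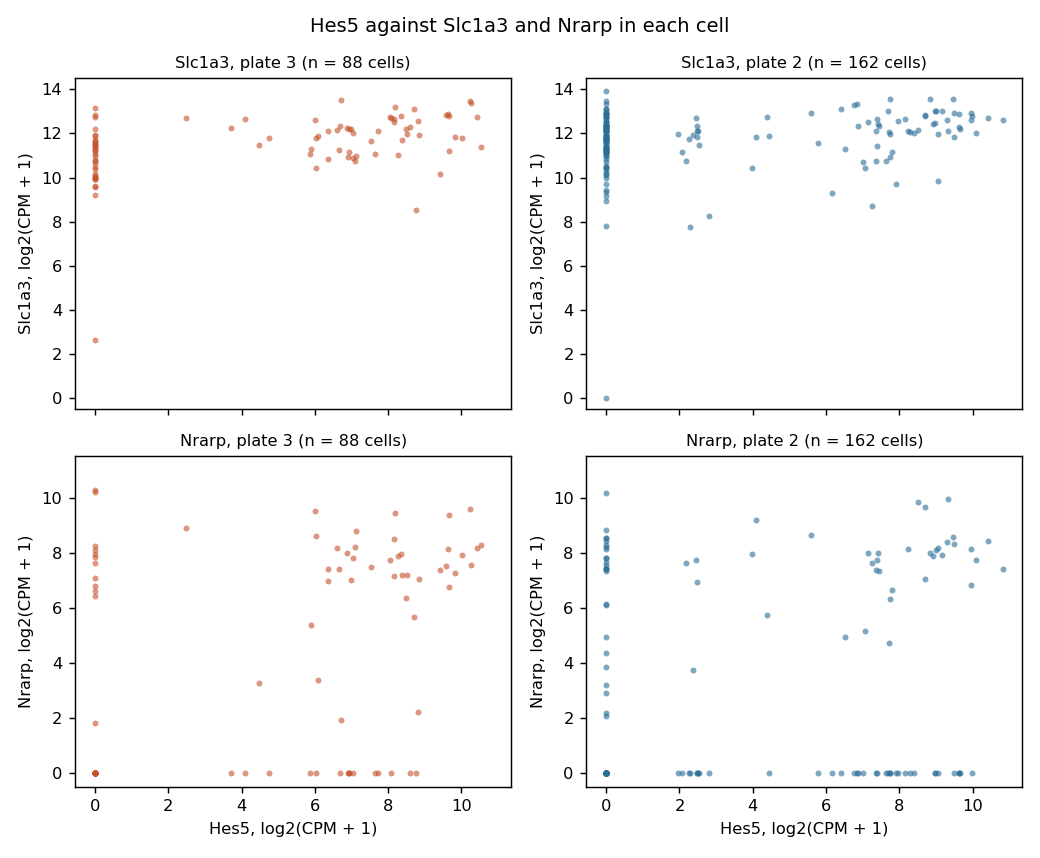
Hes5 (x axis) against Slc1a3 (upper panels) and Nrarp (lower panels) in each cell, both as log2(CPM + 1), for plate 3 (left, 88 cells) and plate 2 (right, 162 cells). Nrarp was detected in 105 cells and shared 68 of them with Hes5, while many cells held only 1 of the pair.

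Nrarp ran between 0 and 1251.5 CPM with a median of 0 CPM and a mean of 116 ± 209 CPM. Hes5 and Nrarp were detected together in 68 cells, against 50.3 if the cells of each plate held them independently. Since Nrarp was picked for its rho with Hes5 in these same cells, this excess describes that rho again and adds no support. On plate 3 the pair was in 35 of the 47 cells with Nrarp, and on plate 2 in 33 of 58. Hes5 went the other way with the water channel gene Aqp4, at a rho of -0.32 on plate 3 and -0.13 on plate 2, whereas Itih3, a hyaluronan-binding inhibitor chain gene, had 0.37 and 0.14 with Hes5.

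The promoters of Hes5 and Nrarp are shown because Nrarp is, like Hes5, a gene that Notch induces and was among the 3 genes most like it. Each is the 250 bases upstream of the RefSeq start on GRCm38.p6, read 5′ to 3′ on the gene's strand. Capitals mark GTGGGAA or its reverse complement TTCCCAC, the core of the site that RBPJ is known to bind.
Hes5: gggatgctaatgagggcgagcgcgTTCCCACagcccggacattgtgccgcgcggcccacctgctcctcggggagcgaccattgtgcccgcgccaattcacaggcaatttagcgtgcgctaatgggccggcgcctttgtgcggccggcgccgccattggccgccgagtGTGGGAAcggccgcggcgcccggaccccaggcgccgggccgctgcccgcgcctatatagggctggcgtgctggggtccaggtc
Nrarp: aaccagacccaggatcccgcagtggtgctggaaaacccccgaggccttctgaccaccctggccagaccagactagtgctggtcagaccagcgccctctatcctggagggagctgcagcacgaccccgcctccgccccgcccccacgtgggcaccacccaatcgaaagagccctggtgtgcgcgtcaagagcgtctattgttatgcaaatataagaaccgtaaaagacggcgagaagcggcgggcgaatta
The Hes5 sequence is chr4:154960673-154960922 on the plus strand, and that of Nrarp is chr2:25180508-25180757 on the plus strand. Hes5 had matches beginning at -226 and -83 from the start, 1 on each strand. The Nrarp window had 0, which says only that these letters are not in it. Of all 32851 RefSeq promoters of this length, 5.42% held at least 1 match, and of the 12 promoters of the 8 factors with an entry, only that of Hes5 did.

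Id3 (chr4:136143497-136145755, plus strand), a BMP-induced inhibitor of bHLH factors, was detected in 102 cells (40.8%, 34.6 to 47.2). It ran between 0 and 2505 CPM, with a median of 3.07 CPM and a mean of 217 ± 437 CPM. Id3 was the most uneven of the factors other than Hopx, with 530 CPM on average in the cells that had it and 61.4% of its summed CPM in the 25 highest cells. Id4 (chr13:48261228-48266026, plus strand), known to keep adult neural stem cells at rest, was detected in 106 cells (42.4%, 36.2 to 48.8). It ran between 0 and 927 CPM with a median of 0 CPM and a mean of 110 ± 179 CPM, and 139 cells had no read of it. Reads of Id4 cannot be told apart here from those of its antisense gene A330033J07Rik where exons overlap. That gene averaged 8.57 CPM in 27 cells and had a rho with Id4 of 0.44 on plate 3 and 0.34 on plate 2. The same limit holds for Sox8 with 2810468N07Rik (34.4 CPM) and Nfia with E130114P18Rik (73.5 CPM), whose rho with its partner factor was at most 0.14 on either plate. It also holds for Nfix, which overlaps Lyl1 (0.64 CPM, in 2 cells) and G430095P16Rik, for Hes5 with Gm20421 and for Hopx with Hopxos. G430095P16Rik, Gm20421 and Hopxos had no row of that name in the count table.

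Id2 was the widest of the 4 ID genes, detected in 223 cells at 614 ± 561 CPM, and Id1, the classic BMP target, the narrowest, in 28 cells at 28.3 ± 104 CPM. Id3 had a positive rho with each of the others on both plates. Its rho with Id4 was 0.32 on plate 3 and 0.23 on plate 2, with Id2 0.26 and 0.28, and with Id1 0.08 and 0.36. Id3 and Id4 were detected together in 54 cells, against 42.6 if independent within plates, while 96 cells had neither. A rho of 0.2 with Id3 on both plates was reached by 6 genes, 0.094% of 6380. The 3 most like it were Lcat, which esterifies cholesterol on lipoproteins (0.34 on plate 3 and 0.26 on plate 2), Id4, and Dner (0.43 and 0.12). For Id4 they were Vcl, the focal adhesion gene vinculin (0.38 and 0.19), Id3, and Syap1 (0.29 and 0.21), and 3 genes (0.047%) reached 0.2 on both plates.

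None of 15 BMP pathway genes was detected in at least 50% of the cells. The receptor Bmpr1b was found in 103 cells at 137 ± 252 CPM and Bmpr1a in 94 at 136 ± 278 CPM. The receptor Bmpr2 was found in 67 cells, the ligand Bmp7 in 42, the transducer Smad1 in 18 and Bmp4 in 1. The rho of Id3 with Bmpr1a was 0.12 on plate 3 and 0.09 on plate 2, and that of Id4 with Bmpr1a 0.09 and 0.15. Among the bHLH genes that ID proteins act on, the E protein Tcf4 was found in 194 cells at 253 ± 322 CPM, Tcf12 in 71 and Tcf3 in 42. Olig1 was detected in 173 cells at 306 ± 355 CPM and Olig2 in 83.

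The Id4 promoter is shown as that of the factor, among those with a mean of 20 CPM or more, whose mean level differed most between plates as described below. It is chr13:48260866-48261115 on the plus strand of GRCm38.p6, the 250 bases upstream of the RefSeq start, and capitals mark GGCGCC, a SMAD-binding core that reads the same on both strands, and CCAAT or its reverse complement ATTGG, the letters of the CCAAT box, with no overlap between the matches.
Id4: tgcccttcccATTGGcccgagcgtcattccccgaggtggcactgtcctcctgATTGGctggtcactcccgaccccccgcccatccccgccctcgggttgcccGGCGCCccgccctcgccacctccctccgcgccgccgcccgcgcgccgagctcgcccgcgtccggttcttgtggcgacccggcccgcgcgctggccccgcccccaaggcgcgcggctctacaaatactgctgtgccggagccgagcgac
GGCGCC began at -148 and the CCAAT letters at -240 and -198, each of them on the opposite strand. GGCGCC was in 9.59% and CCAAT in 33.8% of all RefSeq promoters of this length.

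Hopx (chr5:77086988-77115121, minus strand) had 137 reads in all, 54 of them in 1 cell, and its mean was 1.45 ± 11.2 CPM. It had reads in 6 of the 250 cells, 2 on plate 3 and 4 on plate 2, and reached 10 CPM in 5 (2.0%, 0.653 to 4.61). The 2 plate 3 cells had 121 and 75.5 CPM, and the 4 plate 2 cells 95.1, 37.2, 27.5 and 4.68 CPM. All 5 cells at 10 CPM also held Hes5, Id3 and Nfia. Under independence within plates, 2.34 cells would hold Hopx with Hes5 and 2.07 with Id3. Chosen by this pattern and resting on 5 cells, these counts are a description of those cells. The highest likeness of Hopx was with Eif2b5 (0.37 on plate 3 and 0.31 on plate 2), Dkk3 and Phactr1, and 7 genes (0.11% of 6381) reached 0.2 on both plates, which rests on the same few cells.

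Of 11 further genes of neural stem cells and progenitors, 2 passed the 50% mark. They were Vcam1, an adhesion molecule of stem cells and of activated endothelium, in 168 cells at 521 ± 661 CPM, and Fabp7, a fatty-acid-binding protein of radial glia and astrocytes, in 153 at 219 ± 291 CPM. The growth factor receptor Egfr was found in 104 cells. Nes was below 10 CPM in every cell, and the proliferation gene Mki67 had no reads.

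A cell held a median of 5 of the 10 factors, with 1 at least and 10 at most. The median was 6 on plate 3 and 5 on plate 2, with and without thinning to 50000 reads. Thinned cells pass 10 CPM with 1 read, a looser limit than at full depth. The means were 6.07 ± 1.53 on plate 3 and 5.28 ± 1.58 on plate 2, and thinned they were 5.92 ± 1.56 and 5.22 ± 1.56. The number of factors had a rho with the number of genes detected of 0.34 on plate 3 and 0.26 on plate 2. With the read total the rho was 0.17 and -0.13. The number went with none of the marker sums of other cell types beyond 0.2 on either plate.

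**Figure D4:**
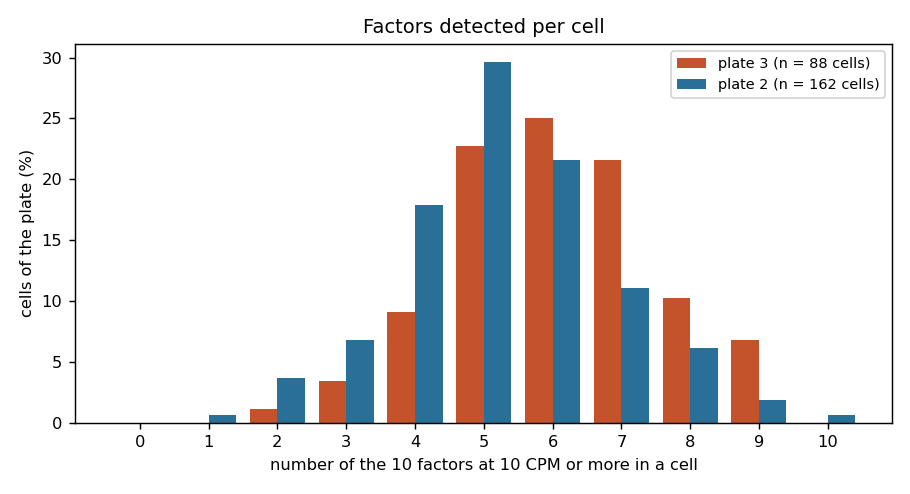
Number of the 10 factors at 10 CPM or more in a cell (x axis) and the share of the plate's cells with that number (y axis, %), for plate 3 (88 cells, left bars) and plate 2 (162 cells, right bars). Plate 3 was highest at 6 factors and plate 2 at 5, and no cell had 0.

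Sox9 and Nfia were detected together in 197 cells (78.8%, 73.2 to 83.7), against 196 if independent within plates, and 4 cells had neither. The pair was thus together about as often as the single shares imply. No such expected count was computed for the larger combinations. At least 1 SOX and 1 NFI member were present in 239 cells (95.6%, 92.3 to 97.8). All 3 SOX members were in 86 cells and all 3 NFI members in 88, and all 6 together in 33, which was the most frequent of the combinations of these 6. The next, with 30 cells, lacked Sox2 alone. Hes5, Id3 and Id4 were far less general, since 55 cells had none of them and 30 had all 3. The cell with 10 factors was on plate 2 and had 215149 reads and 2896 genes. The cell with 1, which was Sox9, was on plate 2 too and had 213857 reads but 1311 genes, near the lowest of the plate at 1282.

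The factors were at most weakly correlated with each other over cells, with 1 exception. The mean rho of their 45 pairs was 0.04, with an SD of 0.07 between pairs, and was 0.04 on each plate. Over all pairs of 9225 genes the median was 0.00, and 2.5% of pairs lay above 0.14. Of these pairs, 17 were positive on both plates, 4 negative on both, and 24 had opposite signs, so most of these weak values did not repeat. Sox8 and Sox9 had a rho of 0.05 on plate 3 and 0.09 on plate 2, and Sox9 and Nfia 0.16 and 0.00. Among the NFI genes, Nfia and Nfib had -0.03 and 0.13, Nfia and Nfix -0.08 and 0.00, and Nfib and Nfix -0.08 and 0.02. Sox9 and Hes5 were positive on both plates, with 0.16 and 0.13. The 1 pair at 0.2 or more on both was Id3 and Id4, and 0.008% of all gene pairs were at or above their mean.

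**Figure D5:**
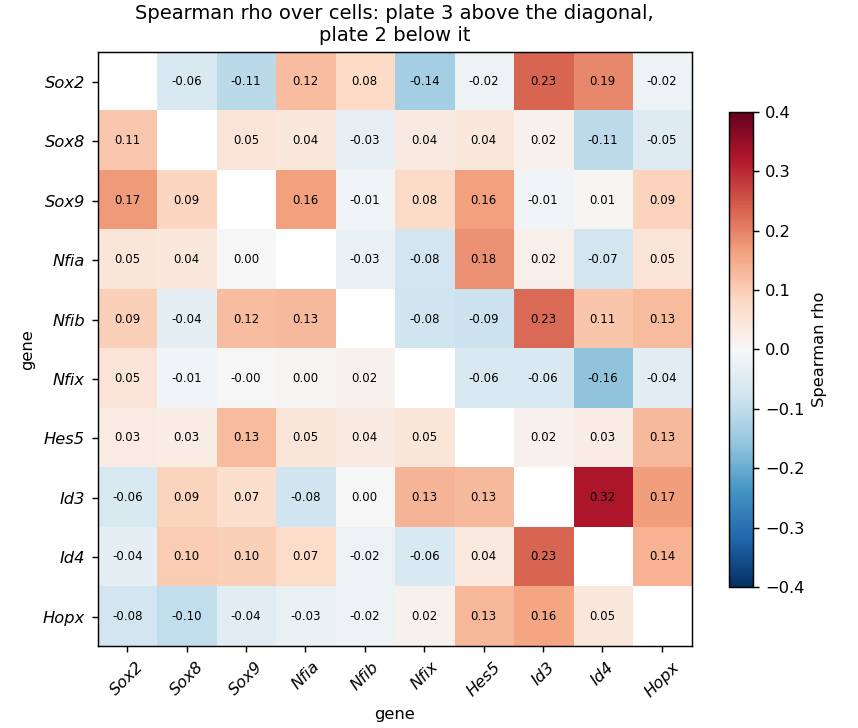
Spearman rho over cells for each pair of the 10 factors, with plate 3 (88 cells) above the diagonal and plate 2 (162 cells) below it, on a colour scale between -0.4 and 0.4. Id3 and Id4 stand out on both plates with 0.32 and 0.23, while pairs such as Sox2 and Id3 (0.23 and -0.06) were high on plate 3 alone.

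For the other factors, too, few genes reached a rho of 0.2 on both plates. For Nfia the likest was Col5a3, a fibrillar collagen chain gene (0.40 on plate 3 and 0.27 on plate 2), followed by Cops3 and Fam65a. For Nfib it was Boc, a co-receptor of sonic hedgehog (0.39 and 0.24), followed by Wasl and Ppme1. The likest of Nfix were Megf9 (0.44 and 0.09), Gfap and Tiparp. Dclk2 (0.23 and 0.29), Vapa and Nme1 came nearest to Sox9, and Actn4 (0.23 and 0.22), Arhgap32 and Tgds to Sox8. For Sox2 they were Scaf11 (0.23 and 0.22), Aebp2 and Pnisr. Of 6380 genes, 0.2 on both plates was reached by 1 for Sox2 (0.0157%), by 2 each for Sox8, Sox9, Nfia and Nfib (0.0313% each) and by 3 for Nfix (0.047%). With read total and number of genes held constant, it was 2 for Sox2, 1 each for Sox8, Sox9 and Nfia, 2 for Nfib and 0 for Nfix, whose rho with the number of genes was 0.25 on plate 3.

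The plates differed in how many cells held Sox2, Hes5, Sox8 and Id3. Sox2 was detected in 61.4% of cells (50.4 to 71.6) on plate 3 and 40.1% (32.5 to 48.1) on plate 2. Hes5 was in 61.4% (50.4 to 71.6) on plate 3 and 37.0% (29.6 to 45.0) on plate 2. These intervals cover counting error only, and a difference between plates was not tested. Sox8 was in 85.2% (76.1 to 91.9) on plate 3 and 70.4% (62.7 to 77.3) on plate 2. Id3 was in 48.9% (38.1 to 59.8) on plate 3 and 36.4% (29.0 to 44.3) on plate 2. These 4 were each at least 10 points higher on plate 3, as were 6.2% of the 7289 genes with a mean of 20 CPM or more. The cells of plate 3 were more deeply read, so all cells were thinned. They were drawn down to 50000 reads, where 1 read passes 10 CPM, a looser limit than at full depth. The shares were then 61.4% and 36.4% for Sox2, 60.2% and 38.3% for Hes5, 84.1% and 71.0% for Sox8, and 50.0% and 38.9% for Id3, against 6.24% of genes at least 10 points higher. Sox9 was in 90.9% and 84.6% of cells, Nfix in 65.9% and 56.2%, Nfia in 89.8% and 90.7%, and Nfib in 64.8% on both.

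Id4 went the other way, in 36.4% of cells (26.4 to 47.3) on plate 3 and 45.7% (37.8 to 53.7) on plate 2. Its level ran between 0 and 560 CPM on plate 3 and between 0 and 927 CPM on plate 2, with a median of 0 CPM on both, and it averaged 65.9 ± 128 CPM on plate 3. Its mean on plate 2 was 133 ± 198 CPM, so the log2 ratio of plate 3 over plate 2 was -1.02. It was the 1 of the 9 factors with a mean of 20 CPM or more that lay at least 2-fold apart, as did 10.2% of the 7289 genes, 3.66% higher and 6.56% lower on plate 3. Id4 sat at the edge of that threshold, with -0.99 after thinning and -0.92 with size factors in place of read totals. Of the other log2 ratios, Sox2 had 0.79 (plate 3 at 95.2 ± 120 CPM, plate 2 at 55.2 ± 93.2 CPM) and Hes5 0.55 (217 ± 339 and 147 ± 292 CPM). Those of Sox8, Nfia, Nfix, Nfib, Sox9 and Id3 were 0.35, 0.31, 0.27, 0.22, 0.19 and 0.09. The median over all these genes was -0.04. Plate, animal and sort cannot be told apart here, and a smaller share of cells with a factor and fewer reads of it per cell cannot either at this depth.

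Against genes of like mean, Id3 and Hes5 were more variable between cells and the other 7 of 9 factors less, Nfib only slightly. The squared coefficient of variation of Id3 was 1.52 times the trend over 6381 genes on plate 3 and 2.14 times on plate 2, which placed it 182nd. Hes5 was 1.19 and 1.29 times the trend, and Nfib, close to it, 0.909 times on plate 3 and 0.978 times on plate 2. Being above the trend on both plates was no rarity, as 35.7% of the genes were, and 35.9% were below it on both. Sox2 lay lowest, at 0.354 and 0.383 times, followed by Sox9 at 0.484 and 0.538. Sox2 was thus spread over its cells more evenly than a gene of that mean usually was, although 119 cells had none of it.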

How the data were processed

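The deposited count table holds whole-number read counts per gene and cell, not normalized, per the file's own values. The submitters used STAR 2.4.2a and the build mm10, per the submitters' processing notes. The sources used here name no counter, annotation, strand setting or rule by which cells were chosen. Column names gave the sample of every cell, with 0 columns left over. A second deposited table, of scaled values, was not used, and no cell was removed. Counts were divided by the cell's read total and scaled to 1000000 (CPM). For depth, reads of each cell were drawn down to 50000, where 1 read passes 10 CPM, a looser limit than at full depth. Rank correlations (Spearman's rho) were computed within each plate and averaged. Likeness used genes with a mean of 20 CPM or more on both plates, and all gene pairs those detected in 5 cells of each. Variability is the squared coefficient of variation over a loess trend (span 0.1). Binomial intervals are Clopper-Pearson at 95%. Positions, lengths and overlaps come from GENCODE M21 on GRCm38, the assembly mm10 names, in which all 182 genes looked up had 1 match. Promoter sequences are RefSeq's, found for 8 of the 10 members; Sox9 and Nfib had no entry. Scripts were tested on simulated data and used Python 3.11.15, numpy 2.4.6, pandas 2.3.3, scipy 1.17.1 and statsmodels 0.14.6. Genes named are the members, genes of the lists looked up, the 3 genes most like each member, and genes at a rho of 0.2 or more with Hes5 on both plates and overlapping genes, which were added after their values were seen. Members and lists were chosen with earlier results of these data known. Alternatives changed the detection threshold, depth, totals, correlation measure, trend or filter. Some genes of the lists are not reported here.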

Additional observations from a re-analysis of the deposited data

How the results depend on the processing

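Of 45 alternatives for the summary values, 40 kept them within 1.5 times or within 1 SD. Some of these rules were loose. The SD between pairs (0.07) was larger than the mean rho of the 45 pairs (0.04), so a mean of 0 would have passed too. In cells thinned to 50000 reads, limits of 10 CPM and of 1 read are the same, so the second repeats the first. The 5 exceptions concern 2 counts. With 1 read in place of 10 CPM, 8 factors in place of 5 passed the 50% mark. The number of factors at least 2-fold apart between plates, 1 as reported, was 0 after thinning to 50000 reads, 0 without Malat1 and Rn45s in the totals and 0 with size factors, since Id4 then lay just inside 2-fold. It was 2 with no filter on low genes, when Hopx was added and 29.2% of 13792 genes passed. Size factors shifted the median log2 ratio of all genes by 0.08. The mean rho of the 45 pairs stayed between 0.03 and 0.04 under the measures tried, which included holding read total and gene number constant and leaving Hopx out. Of 206 alternatives for single factors, 21 moved a share of cells beyond its interval or another value by more than 1.5 times. A change of direction was looked for only in plate ratios of at least 2-fold, those of Id4 and Hopx, and was found in 0. Among all of these, 7 kinds of alternative were added after the data were seen. No paired analysis was possible because all cells form 1 group. A count of 0 allows up to 3 reads of a cell's total only if reads are independent counts. Without molecular identifiers these reads do not count independent molecules, so the bound is not one on transcripts. RNA missed in the well cannot be told apart from RNA that was not there.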

Other observations

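Of 30 further transcription factor genes known from astrocytes, 6 passed 10 CPM in 50% of the cells or more, and a cell held a median of 10 of the 30. Tsc22d4, of the TSC22 leucine zipper family, had 298 ± 250 CPM in 222 cells. The bHLH-PAS factor Npas3 had 265 ± 340 CPM in 194 cells. The zinc finger gene Zbtb20 had 249 ± 301 CPM in 173 cells, and the homeobox gene Dbx2 362 ± 420 CPM in 170. The nuclear receptor gene Rorb had 272 ± 374 CPM in 164 cells and the GATA-type repressor gene Trps1 195 ± 296 CPM in 130. Of 970 pairs of a factor with a listed gene, 6 had a rho of 0.2 or more on both plates and 0 had -0.2 or less. Among all genes compared, 0.0157% (for Sox2) to 0.157% (for Hes5) reached 0.2 on both plates with a given factor. Of the 6, 4 belonged to Hes5, with Slc1a3, Nnat, Agt and Mfge8. The others were Id3 with Id2 and Hopx with Slc1a3, of which the last rests on the 6 cells with a Hopx read. All but Id3 with Id2 involve a list of variable astrocyte genes, chosen with earlier results of these data known. With read total and number of genes held constant, Hes5 with Mfge8 had 0.14 and Hopx with Slc1a3 0.16 on plate 3, so neither reached 0.2 on both. The count was then 5, since a pair not among the 6 passed. Id4 had a rho with Aqp4 of 0.19 on plate 3 and 0.18 on plate 2, the opposite sign to Hes5 with Aqp4. Sox8 had a rho with the imprinted gene Nnat of -0.19 on plate 3 and -0.18 on plate 2, and Hes5 had 0.38 and 0.24.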
